A study of Mus musculus with 6 samples.

Results

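The nutrient carriers examined here are the genes of 10 solute carrier (SLC) families that move sugars, amino acids and monocarboxylates across membranes: Slc1, Slc2, Slc3, Slc5, Slc6, Slc7, Slc16, Slc36, Slc38 and Slc43. A gene was a member when its symbol was one of these family names followed by the letter a and a number, and when a probe set carried that symbol alone in the platform's annotation. This gave 93 genes of 18193 measured, with 181 of 34945 such probe sets. The families held 7 Slc1, 11 Slc2, 2 Slc3, 11 Slc5, 18 Slc6, 15 Slc7, 13 Slc16, 4 Slc36, 9 Slc38 and 3 Slc43 genes. Symbols with further letters (Slc5a4a, Slc7a6os and the like, 8 in all) were left out.

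RNA came from bladders of embryonic FVB/N mice, wild type, at day 13 of gestation (Theiler stage 21), and was hybridised to Affymetrix arrays, 6 in all. The organ was kept 20 minutes in 20 µM EDTA, which chelates divalent cations, and its epithelium (the urothelium group, replicates 5, 7 and 8) was parted from the mesenchyme around it (the mesenchyme group, replicates 1, 2 and 4). All arrays share genotype, strain, stage, EDTA treatment and 2 rounds of RNA amplification. Nothing in the labels says whether replicates are different embryos, and the p-values rest on the spread between these arrays, which may be technical, and the number of arrays limits the precision.

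Carriers of the Slc2 family let glucose and related sugars pass down their gradient, whereas most carriers of the Slc5, Slc6 and Slc1 families and many of Slc38 use the sodium gradient that the sodium pump maintains. Many Slc7 light chains reach the cell surface only when bound to a heavy chain of the Slc3 family, and several Slc16 monocarboxylate carriers need the membrane glycoproteins basigin or embigin. Growing embryonic tissue depends on such uptake for energy, protein synthesis, osmotic balance and redox control.

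Markers matched the labels of the compartments. All 10 epithelial markers were higher in urothelium (summed signal 389769 to 450992 against 8591 to 11712 in mesenchyme), and all 7 fibroblast, 5 smooth muscle and 7 endothelial markers were higher in mesenchyme. Summed endothelial signal was 15490 to 19383 in mesenchyme and 959 to 1417 in urothelium, and summed macrophage signal was 6059 to 8795 against 831 to 965, with 4 of 7 markers past the test. Of 6 measured red cell markers 3 were higher in mesenchyme (Hba-x, Slc4a1 and Alas2), while summed signals of the list overlapped (68661 to 86294 and 56931 to 103546). Most of both sums was Hbb-y, which was not past the test (mean 70227 in mesenchyme and 74564 in urothelium). Sums of neural crest and neuronal markers and of mesothelial markers overlapped too. Of these lists 2 of 5 and 2 of 4 markers were higher in mesenchyme, and 1 of each list was higher in urothelium. Most of the neural crest and neuronal sum in urothelium was Ret (mean 3536, against 317 in mesenchyme). Stmn2 and Fabp7 were higher in mesenchyme (means 1628 and 415, against 304 and 83 in urothelium). Elavl4 (mean 1270 in mesenchyme and 322 in urothelium, without overlap) and Sox10 (323 and 374, with overlap) were not past the test. No signal on any array was 0. In whole tissue, fewer cells of a type and less RNA per cell cannot be told apart. Mesenchyme 1 and urothelium 5 stood apart in how much brighter the 3' than the 5' probe set of beta-actin was, which rises when amplified RNA is short, at 8.40 and 8.60 times against 2.29 to 4.89 times elsewhere.

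Of the 93 carriers, 6 were higher in urothelium and 10 in mesenchyme (limma, adjusted p under 0.05). Those shares, 6.45% and 10.8%, lie near the shares of all genes, 5.80% and 8.91%, and both directions together came to 17.2% of carriers against 14.7% of genes. All fibroblast, smooth muscle and endothelial markers were higher in mesenchyme like the 10 genes, as were 4 of 7 macrophage markers. Some red cell, neuronal and mesothelial markers were so too. Which of these cell types the RNA of the 10 genes came from was not tested. An unadjusted p under 0.05 was found for 28 of the 93 carriers and for 25% of all genes. The median log2 difference, urothelium minus mesenchyme, was 0.0058 for the carriers and −0.11 for all genes, and the median of its absolute size was 0.44 and 0.43. The signals of the compartments did not overlap for 33 carriers, 35.5% against 30.1% of all genes, and all 16 carriers past the test were among them. The 77 other carriers had log2 differences from −1.56 to 1.25. Signal lay below the array's median on all 6 arrays for 26 carriers (1.00 to 230.2 units), 0 of which passed limma's test, and 31 were above the median gene in mean signal. Without mesenchyme 1 and urothelium 5, 15 of the 16 calls were made again. The urothelium count was 3 without mesenchyme 2, and weighting arrays by quality raised the counts to 10 in urothelium and 19 in mesenchyme, while those over all 18193 genes rose to 2055 and 2996.

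**Figure D1:**
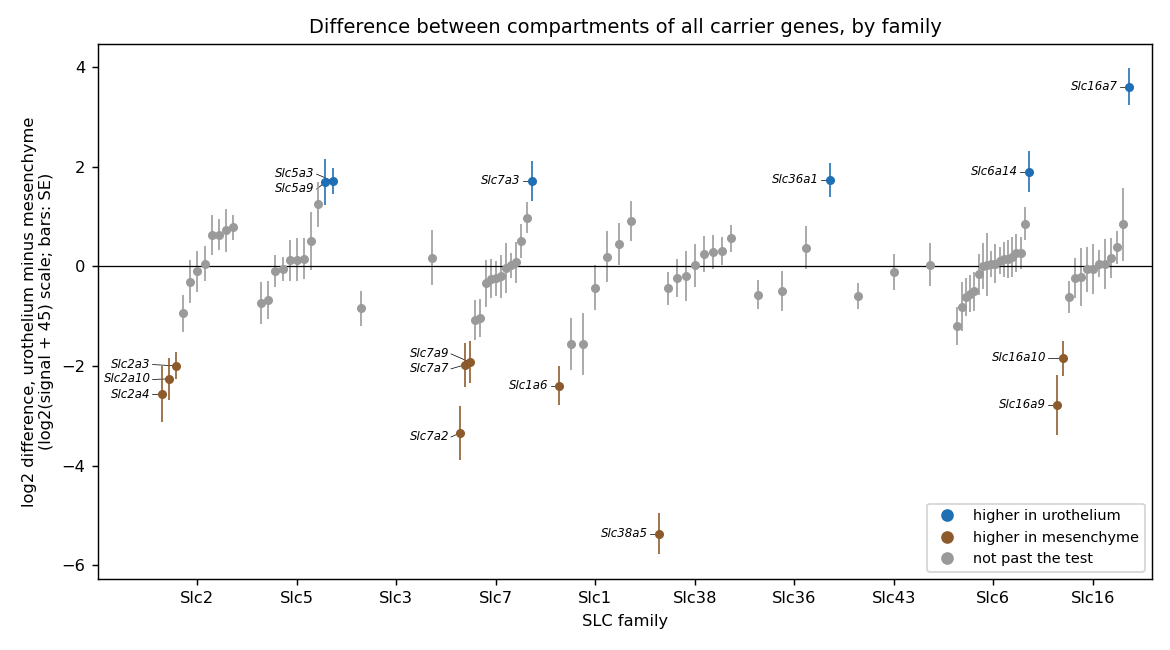
Log2 difference between urothelium and mesenchyme (vertical axis, log2(signal + 45) scale, 3 arrays a group) of all 93 carriers, ordered within each SLC family; bars are moderated standard errors and colours show the test. The 6 genes higher in urothelium reach 3.61 (Slc16a7) and the 10 higher in mesenchyme reach −5.37 (Slc38a5).

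**Figure D2:**
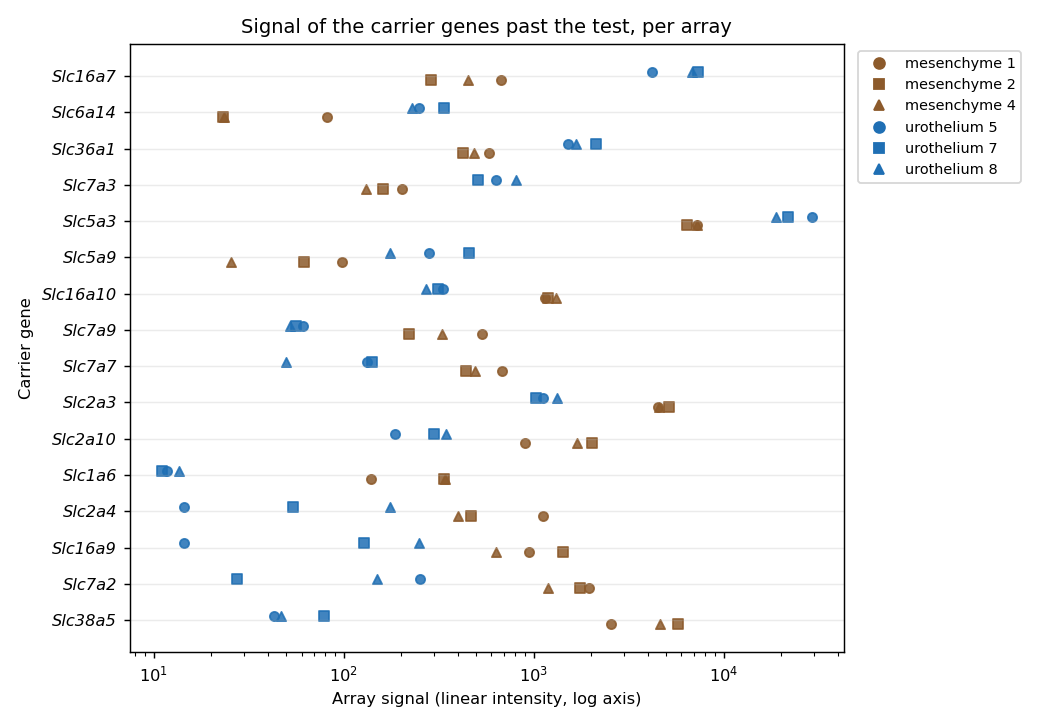
Array signal (linear intensity on a log axis) of the 16 carriers past the test, 1 point for each of 6 arrays, ordered by log2 difference. In each gene the 3 points of one compartment lie wholly above the 3 of the other, from Slc16a7 at the top (4207, 7349 and 6836 in urothelium) to Slc38a5 at the bottom (2544, 5762 and 4635 in mesenchyme).

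The sequence just upstream of the transcription start is shown for some of the carriers past the test, so that the region each gene is started from can be set beside its expression. Shown are the 250 bases before the start, from RefSeq on GRCm38.p6, for the 2 genes in each direction with the largest difference among those past the test, with signals above 1000 on every array of the higher compartment and 1 listed start. These limits left out carriers with larger log2 differences than Slc16a10 and Slc5a3, such as Slc7a2 (−3.34) and Slc16a7 (3.61). They lie on chrX:8271131-8271380 (plus strand, Slc38a5), chr10:40142255-40142504 (minus strand, Slc16a10), chr11:55204090-55204339 (plus strand, Slc36a1) and chr16:92058072-92058321 (plus strand, Slc5a3). Each runs 5′ to 3′ on the gene's strand, with capitals for matches on either strand to the GC box GGGCGG, the CCAAT box CCAAT, the TATA box TATAAA and the hypoxia response core ACGTG.
Slc38a5: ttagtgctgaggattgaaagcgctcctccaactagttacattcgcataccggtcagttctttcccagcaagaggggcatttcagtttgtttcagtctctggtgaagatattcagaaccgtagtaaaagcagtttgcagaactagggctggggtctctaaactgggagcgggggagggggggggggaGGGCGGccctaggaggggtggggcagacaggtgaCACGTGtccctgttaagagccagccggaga
Slc16a10: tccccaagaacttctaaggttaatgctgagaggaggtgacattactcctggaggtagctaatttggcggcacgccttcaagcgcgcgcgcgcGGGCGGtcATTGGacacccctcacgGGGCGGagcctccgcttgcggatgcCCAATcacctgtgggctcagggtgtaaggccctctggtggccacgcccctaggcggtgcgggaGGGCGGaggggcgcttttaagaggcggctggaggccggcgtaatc
Slc36a1: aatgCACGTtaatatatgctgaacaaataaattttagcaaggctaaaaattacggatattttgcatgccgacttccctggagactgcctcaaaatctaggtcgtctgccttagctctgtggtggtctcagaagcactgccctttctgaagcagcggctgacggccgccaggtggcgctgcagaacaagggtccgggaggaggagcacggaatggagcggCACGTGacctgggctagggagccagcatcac
Slc5a3: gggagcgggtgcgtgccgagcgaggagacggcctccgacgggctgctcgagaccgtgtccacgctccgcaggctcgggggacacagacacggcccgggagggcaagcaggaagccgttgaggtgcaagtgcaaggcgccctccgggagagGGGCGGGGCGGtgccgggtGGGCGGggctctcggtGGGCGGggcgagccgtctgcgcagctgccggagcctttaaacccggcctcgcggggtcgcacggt

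The 4 windows differ in composition. That of Slc5a3 held 32 CpG dinucleotides and 74.8% G and C, that of Slc16a10 21 and 64.4%, that of Slc36a1 12 and 53.2%, and that of Slc38a5 8 and 55.2%, against medians of 6 and 52.4% over 32851 listed promoters. GC boxes were found 4 times upstream of Slc5a3 (some overlapping), 3 times in Slc16a10, 1 time in Slc38a5 and 0 times in Slc36a1, and 32.7% of all promoters hold one. The E-box CACGTG, which contains ACGTG on both strands, stood 1 time each upstream of Slc38a5 and Slc36a1, and 6.02% of all promoters hold it. Slc36a1 held ACGTG a further time, and 16.6% of all promoters hold that core. CCAAT was present 2 times in Slc16a10 and is found in 33.8% of all promoters. The TATA box and the amino acid response element TGATGNAA were matched in none of the 4 windows, and in 12.4% and 3.45% of all promoters. The promoter table held 67 of the 93 carriers and 10 of the 16 past the test.

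Among the facilitative sugar carriers of the Slc2 family, 3 of 11 genes were higher in mesenchyme and 0 in urothelium by limma, and 5 had an unadjusted p under 0.05. Over all genes the shares were 8.91%, 5.80% and 25%. They are also the background of the families that follow, which hold few genes each, and no family was tested against them. Slc2a3, which encodes a high-affinity glucose carrier best known from neurons, read 4515, 5160.3 and 4573 on mesenchyme 1, 2 and 4 and 1124, 1025 and 1328 on urothelium 5, 7 and 8. The groups were tight and far apart, a 4.0-fold difference (log2 −2.0 ± 0.27 SE, limma adjusted p = 0.000467). A further bright probe set of Slc2a3 gave a log2 difference of −2.26 ± 0.33, while the remaining pair never exceeded 346.7 units and gave −0.85 and −0.26. Slc2a10, whose product is found in internal membranes and whose human counterpart is mutated in arterial tortuosity syndrome, read 895.8, 2038 and 1686 in mesenchyme and 186.2, 297.7 and 345.3 in urothelium. Every mesenchyme array was above every urothelium array, with a log2 difference of −2.26 ± 0.43 (limma adjusted p = 0.00407), and its other probe set gave −3.50 ± 0.51. Slc2a4, the insulin-responsive carrier of muscle and fat, read 1115, 469.9 and 401.7 in mesenchyme and 14.4, 53.8 and 174.7 in urothelium. Its difference of −2.56 ± 0.57 (limma adjusted p = 0.0107) rested on 1 of 2 probe sets, the other giving −0.63 ± 0.48. The call of Slc2a4 was lost without urothelium 7 (−2.49) and without both mesenchyme 1 and urothelium 5 (−1.70), and mesenchyme 1 carried its highest signal.

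The ubiquitous glucose carrier gene Slc2a1 had the opposite order. It read 3609.5, 3662 and 4162 in mesenchyme and 6588, 5869.6 and 7389 in urothelium, without overlap. The log2 difference of 0.79 ± 0.25 was not past the threshold (limma adjusted p = 0.0605, 95% confidence interval 0.24 to 1.33), and its other probe sets gave 0.55 ± 0.31 and 0.27 ± 0.28. It was past the threshold after quantile normalization (0.81), after centring arrays on their medians (1.06) and with array weights (0.67). Under the other alternatives it was not, and over all of them the difference ran from 0.53 to 1.06.

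Sodium-coupled carriers of the Slc5 family were higher in urothelium for 2 of 11 members and in mesenchyme for 0 by limma, and 3 had an unadjusted p under 0.05. Slc5a3 encodes the sodium and myo-inositol carrier, which cells use to load the osmolyte inositol. Its signals were 7209, 6419.9 and 7250.3 in mesenchyme and 29042, 21959 and 18906 in urothelium. The lowest urothelium array was well above the highest mesenchyme array, a 3.29-fold difference (log2 1.72 ± 0.26, limma adjusted p = 0.000841). The other 2 probe sets of Slc5a3, at most 456.2 units, gave 0.51 ± 0.63 and −0.23 ± 0.40, and for the mean of all probe sets the call was lost (0.67). The RefSeq table lists Mrps6, a mitochondrial ribosomal protein gene, with a start within 50 bases of that of Slc5a3. The probe set of Mrps6 was also higher in urothelium, by 0.88 ± 0.26 (limma adjusted p = 0.0422).

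Slc5a9, which encodes a mannose and glucose carrier, was dimmer. It read 97.5, 61.6 and 25.6 in mesenchyme and 280.2, 459.6 and 175.0 in urothelium. The compartments did not overlap (log2 difference 1.69 ± 0.46, limma adjusted p = 0.0294), but the call was lost without mesenchyme 2 (1.72), mesenchyme 4 (1.42), urothelium 5 (1.70) or urothelium 7 (1.39). A further probe set of the gene was past the test over probe sets (2.45 ± 0.51), and the remaining 2 gave 0.50 ± 0.62 and 0.27 ± 0.31.

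Cationic amino acid carriers, which bring in arginine and lysine, differed by gene. Slc7a2 read 1957, 1751 and 1184 in mesenchyme and 253.6, 27.3 and 150.6 in urothelium. No array crossed over, and the log2 difference was −3.34 ± 0.54 (limma adjusted p = 0.00138). Its other 3 probe sets stayed at or below 174.8 units with differences of −0.45, −0.61 and 0.78, and for the mean of all 4 the call was lost (−0.91). Slc7a3 went the other way, with 203.0, 161.3 and 131.5 in mesenchyme and 637.1, 509.9 and 810.8 in urothelium (1.72 ± 0.40, limma adjusted p = 0.0141). That call was lost without mesenchyme 2 (1.71), mesenchyme 4 (1.60) or urothelium 8 (1.56). Slc7a1, the widely expressed member, read 6034, 7336 and 5188 in mesenchyme and 17293, 12581 and 8156 in urothelium. Although all urothelium arrays were higher, the difference of 0.98 ± 0.31 was not past the threshold (limma adjusted p = 0.0627, 95% confidence interval 0.29 to 1.67). It was past it without urothelium 8 (1.26), with array weights (0.97) and when genes below the median signal were not tested (0.98). No other alternative brought it past the threshold, and over all alternatives the difference ran from 0.27 to 1.26. The other probe sets of Slc7a1 gave 0.07 ± 0.37 and −0.25 ± 0.42.

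Of the light chains that pair with Slc3 heavy chains, both members past the test were higher in mesenchyme, so that the Slc7 family had 3 genes higher in mesenchyme and 1 in urothelium among 15. Slc7a7, a carrier of cationic and large neutral amino acids whose human counterpart is mutated in lysinuric protein intolerance, read 685.0, 441.7 and 489.4 in mesenchyme and 132.3, 141.0 and 49.9 in urothelium (−1.97 ± 0.44, limma adjusted p = 0.0107). For the mean of its 2 probe sets this call was lost (−1.10). Slc7a9, whose human counterpart is mutated in cystinuria, read 532.2, 220.8 and 327.7 in mesenchyme and 61.4, 56.0 and 52.0 in urothelium (−1.93 ± 0.42, limma adjusted p = 0.00926). In both genes every mesenchyme array was above every urothelium array. The heavy chain gene of Slc7a9, Slc3a1, read 331.6, 47.2 and 32.0 in mesenchyme and 103.9, 112.2 and 120.5 in urothelium. Its difference was 0.18 ± 0.56 (limma adjusted p = 0.898). On every array but mesenchyme 1 it lay below the array's median.

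Slc3a2, the heavy chain gene of most other light chains, read 2331, 4339 and 3744 in mesenchyme and 1341, 1841 and 2586 in urothelium, which overlap. Its log2 difference was −0.84 ± 0.35 (limma adjusted p = 0.155), not past the threshold. Slc7a5, a large neutral amino acid light chain gene that pairs with Slc3a2, read 1334, 749.5 and 987.1 in mesenchyme and 570.5, 433.1 and 396.9 in urothelium, without overlap but also not past the threshold (−1.04 ± 0.38, limma adjusted p = 0.104). With array weights both genes were past it (−1.03 and −0.93). Slc7a5, which has 1 probe set, also passed at an unchanged difference (−1.04) when all genes were fitted on the mean of their probe sets. Over all alternatives Slc3a2 ran from −1.10 to −0.56 and Slc7a5 from −1.24 to −0.76. Slc7a11, the cystine and glutamate exchanger gene, read 24.9, 80.1 and 116.0 in mesenchyme and 23.4, 129.4 and 13.0 in urothelium and gave −0.34 ± 0.48, with overlap.

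In the Slc38 family of neutral amino acid carriers, 1 of 9 genes passed the test, and it had the largest size of difference among the 93 carriers. Slc38a5 encodes a carrier of glutamine, histidine, serine and glycine. It read 2544, 5762 and 4635 on mesenchyme 1, 2 and 4 and 42.8, 79.1 and 46.9 on urothelium 5, 7 and 8. The mesenchyme arrays were all far above the urothelium arrays, a 41.3-fold difference on the log2(signal + 45) scale (−5.37 ± 0.42, limma adjusted p = 1.19e-05). This call held under all 16 alternatives, with values from −6.21 to −4.18. Slc38a5 has 1 probe set, so the alternatives on probe sets could not change its difference. Its relative Slc38a2, a carrier gene for small neutral amino acids, read 18629, 30419 and 30993 in mesenchyme and 35849, 32717 and 28496 in urothelium. Slc38a1, a glutamine carrier gene, read 9277, 8552 and 11012 in mesenchyme and 17034, 10579 and 15677 in urothelium. Both overlapped between compartments, with log2 differences of 0.31 ± 0.28 (95% confidence interval −0.31 to 0.92) and 0.56 ± 0.27 (−0.03 to 1.16), not past the test. Without mesenchyme 1 and urothelium 5 that of Slc38a2 was −0.0080. The other probe sets of Slc38a2 gave 1.15 ± 0.53 and −0.90 ± 0.50, opposite in direction and not past the test over probe sets.

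The Slc1 family had 1 of 7 genes past the test. Slc1a6, a glutamate carrier gene best known from cerebellar Purkinje cells, read 139.2, 336.4 and 340.1 in mesenchyme and 11.8, 11.1 and 13.6 in urothelium. These are low signals with a complete gap between the groups (−2.39 ± 0.39, limma adjusted p = 0.00163). Slc1a4, a carrier gene for alanine, serine and cysteine, read 5183, 1451 and 1298 in mesenchyme and 1066, 541.9 and 587.1 in urothelium, with by far its highest signal on mesenchyme 1. The log2 difference was −1.56 ± 0.52 (limma adjusted p = 0.0749), and it was past the threshold without mesenchyme 1 and urothelium 5 (−1.22), with array weights (−1.27) and for the mean of all probe sets (−1.82). Other alternatives left it short of the threshold, and over all of them it ran from −1.91 to −0.93. A further probe set of Slc1a4 was past the test over probe sets (−2.04 ± 0.53), and the remaining one was not (−1.85 ± 0.86). The glutamine carrier gene Slc1a5 read 720.1, 1095 and 1352 in mesenchyme and 1240.2, 2003 and 3079.7 in urothelium, which overlap (0.92 ± 0.40, limma adjusted p = 0.180). Slc1a3, the glial glutamate carrier gene, read 561.0, 163.9 and 492.5 in mesenchyme and 205.3, 11.7 and 144.4 in urothelium. Its difference was −1.55 ± 0.63 on overlapping arrays (limma adjusted p = 0.145), or −2.06 and past the threshold with array weights. Under no other alternative was it past, and over all alternatives it ran from −2.30 to −0.58. A dim further probe set of Slc1a3, at most 119.7 units, did not overlap and was past the test over probe sets (−1.34 ± 0.32). The remaining ones gave −0.28 to 0.08.

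Slc36a1, a proton-coupled carrier gene for small amino acids whose product is found on lysosomes and at the cell surface, read 579.7, 424.5 and 487.6 in mesenchyme and 1517, 2128 and 1669 in urothelium. The gap between groups was wide (1.74 ± 0.34, limma adjusted p = 0.00466), and this was 1 of 4 genes of its family past the test. Of 3 Slc43 genes 0 passed limma's test, and 0 had an unadjusted p under 0.05. Slc43a3, a purine nucleobase carrier gene, read 4100.1, 3656 and 4878 in mesenchyme and 2334, 3068 and 2929 in urothelium without overlap (−0.59 ± 0.27, limma adjusted p = 0.201).

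Of 18 Slc6 genes, which encode carriers of neurotransmitters, osmolytes and amino acids, 1 passed the test. Slc6a14, a broad carrier of neutral and cationic amino acids, read 81.5, 23.3 and 23.4 in mesenchyme and 249.7, 339.4 and 228.1 in urothelium (1.90 ± 0.41, limma adjusted p = 0.00830). These dim signals did not overlap between the groups, and without mesenchyme 2 the call was lost (1.76). The other probe set of Slc6a14 gave 1.27 ± 0.47, not past the test over probe sets. The taurine carrier gene Slc6a6 read 1007, 735.3 and 1069 in mesenchyme and 1079, 1208 and 1095 in urothelium, close to each other yet without overlap (0.27 ± 0.33, limma adjusted p = 0.694). The creatine carrier gene Slc6a8 read 7754, 4194 and 2901 in mesenchyme and 3856, 2549 and 3043 in urothelium, with overlap (−0.55 ± 0.37, limma adjusted p = 0.420). The serotonin carrier gene Slc6a4 read 158.0, 93.6 and 31.2 in mesenchyme and 11.6, 12.4 and 9.50 in urothelium, dim but without overlap (−1.20 ± 0.37, limma adjusted p = 0.0569). It was past the threshold without mesenchyme 4 (−1.58), with array weights (−0.93) and with a pseudocount of 1 (−2.70). Under the other alternatives it was not, and over all of them it ran from −2.70 to −0.49.

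Monocarboxylate carriers held the largest difference towards urothelium among the 93 genes. Slc16a7, which encodes a carrier with high affinity for pyruvate and lactate, read 672.0, 289.6 and 454.1 in mesenchyme and 4207, 7349 and 6836 in urothelium. The dimmest urothelium array was above the brightest mesenchyme array by a wide margin, a 12.2-fold difference (3.61 ± 0.37, limma adjusted p = 6.90e-05). It was past the test under all 16 alternatives, from 3.28 to 4.13. Slc16a7 has 1 probe set, so averaging or choosing probe sets could not change its difference. Slc16a1, the widely expressed lactate carrier gene, read 3633, 5543 and 5446 in mesenchyme and 5939, 4474 and 4641 in urothelium. Slc16a3, a lactate exporter gene of glycolytic cells, was dim and read 36.1, 194.6 and 137.5 in mesenchyme and 86.5, 123.8 and 96.6 in urothelium. Both overlapped, with differences of 0.06 ± 0.28 (95% confidence interval −0.56 to 0.67) and −0.06 ± 0.45 (−1.06 to 0.94) that were not past the test and changed sign under some alternatives.

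Both members of the Slc16 family that were higher in mesenchyme carry other substrates. Slc16a10, the carrier gene of aromatic amino acids and thyroid hormones, read 1145, 1193 and 1311 in mesenchyme and 331.6, 312.5 and 272.3 in urothelium. Within each compartment its signals were close together, and the difference was −1.85 ± 0.35 (limma adjusted p = 0.00415). Its other 3 probe sets reached at most 307.1 units and gave −1.53, 0.31 and 0.56, and for the mean of all 4 the call was lost (−0.63). Slc16a9, a carnitine carrier gene, read 950.5, 1421 and 634.6 in mesenchyme and 14.5, 128.3 and 249.2 in urothelium without overlap (−2.78 ± 0.59, limma adjusted p = 0.00838), and its other probe sets gave −2.13 ± 0.55 and −0.77 ± 0.36. Of 13 Slc16 genes, 3 were past the test in all.

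Probe sets of one gene often disagreed in size. The 16 genes past the test had 20 further probe sets among 10 of them. Of these, 16 lay on the same side of 0 as the probe set used, 4 were past the test over probe sets in the same direction and 0 in the opposite one. All 4 that reached 500 units on some array were past the test, and the 16 that stayed below were not. A probe set reaches that limit through the compartment where it is high, so the split is no support for the calls.

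**Figure D3:**
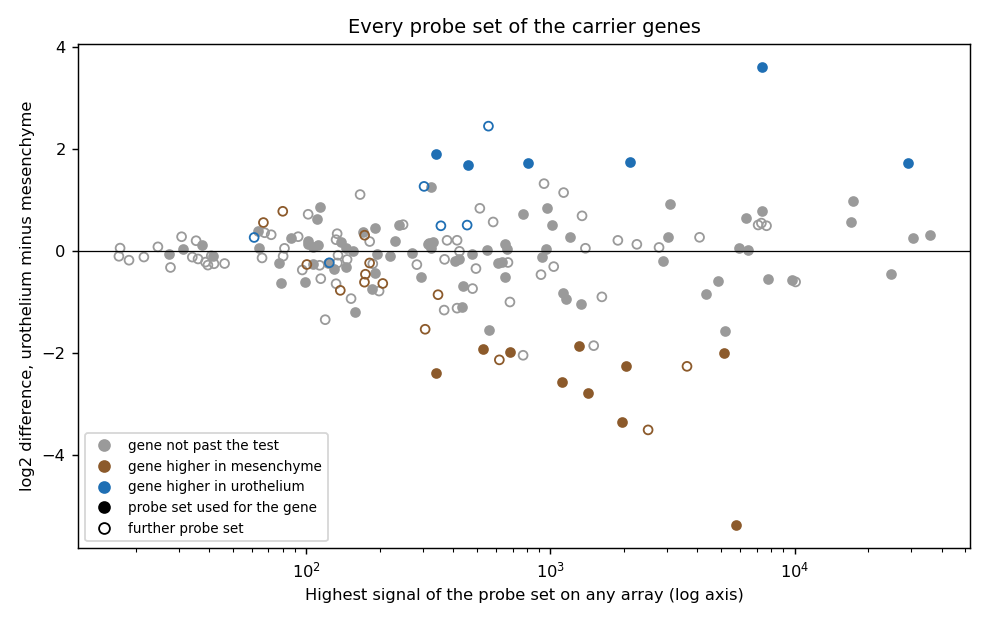
Log2 difference between urothelium and mesenchyme of all 181 probe sets of the 93 carriers (vertical axis) against the highest signal of the probe set on any of 6 arrays (log axis); filled points were used for the gene and open points are further probe sets. Of the 20 open points in colour, the 4 that reach 500 units lie at −3.50 (Slc2a10), −2.26 (Slc2a3), −2.13 (Slc16a9) and 2.45 (Slc5a9).

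Partners of the carriers and the pump behind the sodium gradient gave 5 genes higher in urothelium and 2 in mesenchyme among 14 measured of 21 listed, against 5.80% and 8.91% of all genes. The median log2 difference of that list was 0.07, against −0.11 over all genes, and those shares and that median are also the background of the lists that follow. Emb, the gene of embigin, an ancillary protein of the carrier that Slc16a7 encodes, read 1946, 1384 and 1321 in mesenchyme and 10740.0, 3899.6 and 4782 in urothelium (1.91 ± 0.39, limma adjusted p = 0.00602). Bsg, the gene of basigin, read 605.2, 824.8 and 845.1 in mesenchyme and 363.1, 411.0 and 1201 in urothelium, so that its signals overlapped where those of Emb did not (−0.37 ± 0.47, limma adjusted p = 0.709). Atp1b1, a beta subunit gene of the sodium pump, read 4868, 4049.6 and 5912 in mesenchyme and 52866, 43536 and 30834 in urothelium (3.07 ± 0.28, limma adjusted p = 3.31e-05). The pump regulator gene Fxyd3 was higher in urothelium by 5.78 ± 0.39, and its relatives Fxyd6 and Fxyd5 were higher in mesenchyme (−2.94 ± 0.33 and −1.70 ± 0.45). Scaffold genes of apical membranes, Pdzk1 and Slc9a3r1, were higher in urothelium by 2.48 ± 0.47 and 1.93 ± 0.42. The call of Fxyd5 was lost without mesenchyme 2 (−1.68), mesenchyme 4 (−1.64), urothelium 5 (−1.42), urothelium 7 (−1.61) or both mesenchyme 1 and urothelium 5 (−1.51), and that of Slc9a3r1 without urothelium 7 (1.82).

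Glycolysis genes were higher in mesenchyme for 3 and in urothelium for 1 of 21 measured of 26 listed, with a median log2 difference of −0.26. The enolase genes Eno2 and Eno3, of neurons and muscle, differed by −2.71 ± 0.53 and −1.72 ± 0.40, and the muscle phosphofructokinase gene Pfkm by −1.23 ± 0.31. Aldoc, an aldolase gene, was higher in urothelium (1.81 ± 0.43). Across these genes limma's adjusted p ran from 0.00485 to 0.0201. Ldha, whose enzyme makes lactate, read 32282, 24444 and 21271 in mesenchyme and 45259.9, 31280.0 and 30769 in urothelium, with overlap (0.46 ± 0.28, limma adjusted p = 0.360). Without urothelium 7, Pfkm (−1.27), Eno3 (−1.39) and Aldoc (1.71) were not past the threshold. Aldoc was also lost without mesenchyme 4 (1.66) or urothelium 8 (1.52) and for the mean of all probe sets (0.99). Pfkm was also lost without mesenchyme 2 (−1.17) or urothelium 5 (−0.9982) and with median centring (−0.96).

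Enzymes that use the carried amino acids had 6 genes higher in mesenchyme and 2 in urothelium among 31 measured of 34 listed, with a median log2 difference of −0.33. Arg1, the arginase gene whose enzyme splits arginine to ornithine, read 9.83, 4.52 and 12.2 in mesenchyme and 2336, 1977 and 2976 in urothelium. Gldc, of the glycine cleavage system, read 422.4, 182.2 and 146.0 in mesenchyme and 8446, 8521 and 7059.7 in urothelium. Their log2 differences were 5.51 ± 0.39 and 4.88 ± 0.38 (limma adjusted p = 6.83e-06 and 1.19e-05), and neither overlapped. In the other direction, the branched-chain aminotransferase gene Bcat1 read 5650.4, 6179 and 3931 in mesenchyme and 61.6, 41.0 and 169.0 in urothelium, again without overlap (−5.38 ± 0.43, limma adjusted p = 1.36e-05). Oat, whose enzyme converts ornithine, differed by −2.54 ± 0.26. The taurine synthesis genes Cdo1 and Csad gave −3.38 ± 0.32 and −1.47 ± 0.38. The creatine kinase gene Ckb and the creatine synthesis gene Gatm gave −2.23 ± 0.30 and −2.08 ± 0.46. The call of Csad was lost without mesenchyme 2 (−1.24), urothelium 5 (−1.35), urothelium 7 (−1.45) or both mesenchyme 1 and urothelium 5 (−1.33), and that of Gatm without urothelium 7 (−1.71). Of 29 genes of amino acid sensing and response, among 31 listed, 0 passed limma's test and 3 had an unadjusted p under 0.05, against 25% of all genes, and the median log2 difference was −0.0030. The transcription factor gene Atf4, which drives several amino acid carrier genes under amino acid shortage, read 4911, 9209.8 and 10415 in mesenchyme and 5473, 8668 and 9872 in urothelium (−0.0030 ± 0.35).

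**Figure D4:**
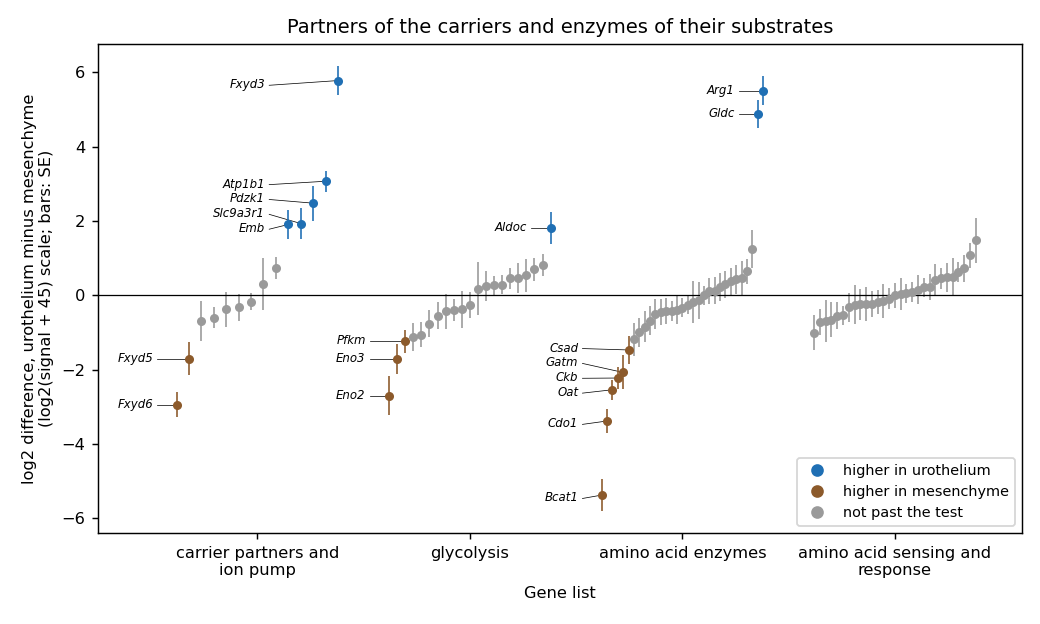
Log2 difference between urothelium and mesenchyme (vertical axis, log2(signal + 45) scale, 3 arrays a group) of the measured genes of 4 lists; bars are moderated standard errors and colours show the test. Fxyd3 (5.78), Arg1 (5.51) and Gldc (4.88) lie highest and Bcat1 (−5.38) lowest, and the list of amino acid sensing and response holds no coloured point.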

How the data were processed

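The authors deposited linear array intensity for 45101 probe sets. Per the submitters' processing notes GCOS, Affymetrix's software, was used; the sources used here do not give its algorithm, settings or detection calls. On each of the 6 arrays the 2% trimmed mean was 1500, so arrays were not rescaled, and any difference in RNA content between cells is not visible. Besides 64 controls, 34945 probe sets had 1 symbol, 932 several and 9160 none; 34741 matched a RefSeq gene by Entrez identifier and 0 symbols changed. Of a gene's probe sets, that with the highest mean log2 signal stood for it. A linear model on log2(signal + 45), with a pseudocount set at the 25th percentile of the deposited intensity values, was fitted across all 18193 genes with limma 3.58.1 in R 4.3.3 (lmFit, eBayes with an intensity trend), and p-values were adjusted by Benjamini-Hochberg over all genes, with a threshold of 0.05. Log2 differences are urothelium minus mesenchyme with the moderated SE (n = 3 and 3) and understate the change of dim genes; a fold is 2 to the power of their size. On simulated data of 18193 genes the fit recovered 2% of 2-fold, 48% of 4-fold, 78% of 8-fold and 98% of 16-fold differences, 50 genes of each, with 4 false among 117 calls. The changed genes were drawn only from those above the median signal, and 2676 genes were called in the real data. These rates therefore do not give the power for the carriers.

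Named were all carriers with an adjusted p up to 0.10, the brightest member of a family with none, and further carriers fixed by name, 32 in all. Of the partner, glycolysis, enzyme and sensing lists the genes past the test were named, with values for at most the 4 of each list with the largest differences in each direction. The values of Emb, Gatm and Csad, past the test but beyond those 4, and of Slc3a1, Mrps6, Bsg, Ldha and Atf4, outside this rule, were chosen after they were seen. Members, lists, markers and rules were chosen with earlier results of these data known. Alternatives were pseudocounts of 1 and 180, quantile normalization, median centring, only genes above the median signal, no trend, array weights, the mean of probe sets, leaving out each array, and leaving out mesenchyme 1 and urothelium 5; picking the probe set by its linear mean was added after the data were seen.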

Additional observations from a re-analysis of the deposited data

How the results depend on the processing

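No paired analysis was made. Mesenchyme and urothelium arrays carry different replicate numbers, and the labels do not say whether any came from the same bladders. Over all genes 1055 were higher in urothelium and 1621 in mesenchyme, and 1358 and 1262 with median centring, which moved the median difference of all genes from −0.11 to 0.17. Leaving out 1 array gave 3 to 7 carriers higher in urothelium and 9 to 11 in mesenchyme. In that order it gave 4 to 6 and 1 to 2 partners, 0 to 2 and 1 to 3 glycolysis genes, 2 to 3 and 4 to 6 enzymes, and 0 to 1 sensing genes in either direction. Array weights gave 2055 and 2996 of all genes, 10 and 19 carriers, 2 and 7 glycolysis genes, 5 enzymes in urothelium, and 2 and 2 sensing genes. With only genes above the median signal, 5 carriers and 1 partner were higher in mesenchyme and 1 sensing gene in urothelium. Median centring gave 2 glycolysis and 2 sensing genes in urothelium. Without both mesenchyme 1 and urothelium 5, 1 partner was higher in mesenchyme, and 2 glycolysis genes and 1 sensing gene in urothelium. The causes were not tested, except that the signal filter tested fewer genes. Among the named genes the sign changed for 3, none past the test: Slc16a1 with array weights (−0.20), without mesenchyme 1 (−0.14), urothelium 5 (−0.07) or both (−0.27); Slc16a3 with a pseudocount of 1 (0.029), quantile normalization (0.10), median centring (0.22) or without mesenchyme 2 (0.27), mesenchyme 4 (0.07) or urothelium 5 (0.020); and Slc38a2 without mesenchyme 1 and urothelium 5 (−0.0080). Leaving out 1 array gave −0.14 to 0.16 for Slc16a1 and −0.51 to 0.27 for Slc16a3. Of the values for named carriers under the alternatives, 459 kept direction and side of the threshold, 16 newly passed it, 14 no longer passed it and 11 changed sign. No detection calls were used, so dim signals are not said to be absent.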

Other observations

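Among the symbols left out of the families for further letters, 0 were past limma's test and 0 had an unadjusted p under 0.05. The proline carrier genes Slc6a20a and Slc6a20b had mean signals of 9.68 ± 5.79 and 42.9 ± 16.3 (SD, n = 3) in mesenchyme and 15.6 ± 20.1 and 22.1 ± 13.2 in urothelium. Slc5a4a, a relative of the sodium and glucose carriers, had 104.6 ± 48.3 in mesenchyme and 47.3 ± 18.8 in urothelium.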
